A study of Mus musculus with 6 samples.

Results

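The genes described here are 4 protein-coding genes of mouse chromosome 4 (Ndufs5, Rpl11, Thrap3 and Ppih, called parents below) and 5 near-identical processed pseudogenes of theirs on other chromosomes (BC002163, Gm10036, Gm10288, Gm5898 and Gm11585, called copies). These 9 genes, out of 55536 in the count table, were chosen by their measured counts in the double knockout, where parent and copy had been seen to differ from wild type. Their changes in that genotype are therefore given as a description. Where calls in DKO from the fit over all genes are counted, they stand beside the share called among all tested genes, and nothing is read from them. All 9 passed the filter on low counts that left 20744 genes for testing. Gm10036 and Gm11585 did so only through their DKO counts, since the filter asks for about 10 counts in at least 2 libraries and each reached that level in 1 of the 4 WT and P2KO libraries. The question was whether counts of a parent and of its copy moved against each other between the genotypes, and what happened to their sum.

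RNA was measured in whole testes of 4-month-old mice on the FVB/NJ background, with 2 mice and so 2 libraries for each of 3 genotypes. WT mice were FVB/NJ. P2KO mice carry a gene trap in which part of Padi2 exon 1 was replaced by LacZ and neomycin resistance sequence. DKO mice were made by CRISPR/Cas9 injection into P2KO embryos, so they carry the Padi2 allele and in addition a 4-nucleotide deletion in Padi4 exon 1, and they descend from 1 founder that was crossed back to P2KO mice. Padi2 and Padi4 encode peptidylarginine deiminases and both lie on chromosome 4 (GRCm38), Padi4 from 140745865 to 140774236 and Padi2 from 140906344 to 140952586. The animals received no treatment in the labels.

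A processed pseudogene arises when a messenger RNA is copied back into DNA and inserted elsewhere in the genome, so it resembles the spliced transcript of its parent and has no introns. Reads from such a pair can be told apart only where the sequences differ or where a read crosses from the shared part into sequence that is particular to one of them. The authors counted reads with STAR, whose gene counts include only reads that align to a single place in the genome, so a read that fits parent and copy equally well enters neither count. The parents serve in basic functions of most cells. Ndufs5 encodes an accessory subunit of mitochondrial complex I, Rpl11 a protein of the large ribosomal subunit that can also bind Mdm2, Thrap3 a nuclear protein of transcription and pre-mRNA splicing, and Ppih the cyclophilin that sits in the U4/U6 small nuclear ribonucleoprotein of the spliceosome.

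In GRCm38 all parents lie on the minus strand of chromosome 4, at distances of 4.9 to 21.6 Mb from Padi2. Ndufs5 (ENSMUSG00000028648) runs from 123712710 to 123718202 and Thrap3 (ENSMUSG00000043962) from 126164082 to 126202760. Ppih (ENSMUSG00000060288) runs from 119300010 to 119320546. BC002163 (ENSMUSG00000081824) lies at chr16:42955631-42955949 on the plus strand within an intron of Zbtb20. Gm5898 (ENSMUSG00000081788) lies at chr7:63542479-63544549 on the plus strand within an intron of Otud7a. Both host genes are read on the same strand, and no exon of theirs overlaps the pseudogene. Gm11585 (ENSMUSG00000082045) lies at chr11:102124072-102124640 on the plus strand, outside any other annotated gene.

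The annotated BC002163 is 319 nucleotides long and matches the Ndufs5 coding sequence from its start codon at 99.4% identity, with no gap. The 100 bases that hold both of the differences are shown, since a read could be assigned by them to one or the other. A read could also be assigned by sequence beyond the aligned stretch or by the exon junction of Ndufs5 inside it. Capitals mark the bases that differ. In positions counted from 1 at the A of the Ndufs5 start codon, they are T81C and A105G, with the parent's base first and the copy's base last. Ndufs5 is shown from chr4:123715938-123716037 (minus strand) and BC002163 from chr16:42955673-42955772 (plus strand), both as in the GENCODE release M21 transcripts of GRCm38, which is the C57BL/6J reference and not the sequence of the FVB/NJ mice.
Ndufs5: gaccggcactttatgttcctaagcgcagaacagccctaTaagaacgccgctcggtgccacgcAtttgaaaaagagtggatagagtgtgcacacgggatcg
BC002163: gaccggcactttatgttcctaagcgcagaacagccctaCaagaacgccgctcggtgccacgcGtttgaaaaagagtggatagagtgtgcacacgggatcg

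Gm5898 matches 2038 nucleotides of the Thrap3 coding sequence at 99.0% identity, with 16 substitutions and 5 gap columns. The 100 bases shown hold 4 of the substitutions, again with capitals at the bases that differ (G2592A, G2662T, G2674A and A2685C, counted in the Thrap3 coding sequence). The Thrap3 bases come from chr4:126165564-126166976 on the minus strand, a span that includes an intron which the transcript skips, and those of Gm5898 from chr7:63544285-63544384 on the plus strand.
Thrap3: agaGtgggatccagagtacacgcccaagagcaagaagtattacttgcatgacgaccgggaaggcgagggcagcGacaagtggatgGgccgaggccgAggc
Gm5898: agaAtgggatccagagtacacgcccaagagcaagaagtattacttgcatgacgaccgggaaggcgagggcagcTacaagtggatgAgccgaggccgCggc

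Gm11585 is 569 nucleotides long and is identical to the Ppih transcript over its whole length. The first 100 coding bases are shown to make the point that there is no base to capitalise. The Ppih bases span an exon junction (chr4:119320200-119320474, minus strand) and those of Gm11585 do not (chr11:102124074-102124173, plus strand).
Ppih: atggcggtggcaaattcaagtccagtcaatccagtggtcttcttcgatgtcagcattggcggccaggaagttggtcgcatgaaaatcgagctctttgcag
Gm11585: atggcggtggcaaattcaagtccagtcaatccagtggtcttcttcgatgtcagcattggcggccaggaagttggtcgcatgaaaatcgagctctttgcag

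The study's reads were sequenced as pairs of 150 nucleotides. Of all stretches of that length in the annotated copy, all were found unchanged in the parent for Gm11585, 38.2% for BC002163 and 30.2% for Gm5898. A single read that lies wholly inside Gm11585 could thus not be told from Ppih in the reference, except by its mate or by bases beyond the annotated copy. The longest run of identical bases was 569 nucleotides for Gm11585, 491 for Gm5898 and 214 for BC002163.

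**Figure D1:**
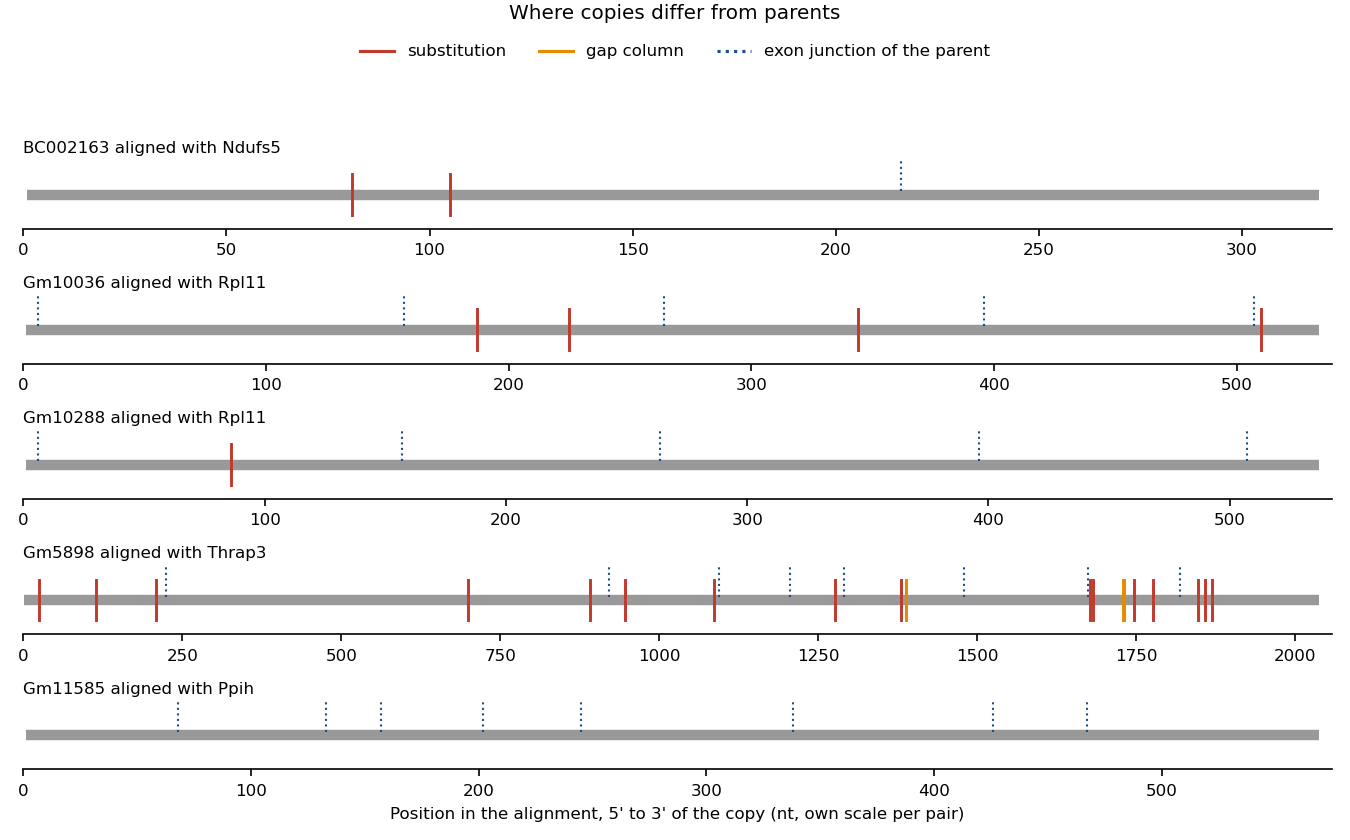
Positions at which each copy differs from its parent in the reference, along the alignment in nucleotides with a scale of its own for each pair. Full-height marks are substitutions (2, 4, 1, 16 and 0 from top to bottom) or gap columns (5, all in Gm5898), and dotted marks are places where the parent has an exon junction that the copy lacks.

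The Rpl11 family has a pair of copies among the 9 genes. Rpl11 (ENSMUSG00000059291) lies at chr4:136028265-136053428. Gm10288 (ENSMUSG00000070343) lies at chr3:146838811-146839347 (minus strand) and is 99.8% identical to Rpl11 over 537 nucleotides, with the substitution G86A. Gm10036 (ENSMUSG00000058064) lies at chr18:15832794-15833327 (plus strand) and is 99.3% identical over 534 nucleotides, with 4 substitutions. Of the stretches of 150 nucleotides, 77.8% of Gm10288 and 13.8% of Gm10036 were found unchanged in Rpl11.

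Total counts ran from 21939393 to 27306679 per library. Padi4 had 20 and 43 counts in WT, 11 and 10 in P2KO, and 4 in each DKO library. Padi2 had 47 and 64 counts in WT, 100 and 55 in P2KO, and 59 and 83 in DKO, so every knockout library lay above the lower WT library. The gene trap replaces part of exon 1, and a count over the whole gene does not check it. All testis marker lists were detected in every library, while epididymis markers stayed at or below 0.415 summed CPM (counts scaled to a fixed library size). Markers of adipose tissue summed to 10.11 to 11.36 CPM, of red blood cells to 21.65 to 42.97 and of macrophages to 42.66 to 53.02. Of the spermatid markers, 2 of 6 were called in DKO against WT, beside 3.22% of all tested genes. In P2KO against WT 1 of 6 was called, beside 0.337% of all tested genes. The summed levels of the spermatid markers were 12580 to 13060 CPM in WT, 10580 to 11790 in P2KO and 11410 to 11490 in DKO. Of the Leydig cell markers, 4 of 5 were called in DKO against WT, beside 3.22% of all tested genes. Their summed levels were 609 to 638 CPM in WT, 648 to 738 in P2KO and 702 to 880 in DKO. The part of either cell type in the results below was not tested. In whole testes, fewer cells of a type and less RNA per cell cannot be told apart.

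Ndufs5 and BC002163 changed places in DKO. Ndufs5 had 79 and 81 counts in WT, 80 and 79 in P2KO, and 577 and 529 in DKO. BC002163 had 262 and 334 counts in WT, 318 and 260 in P2KO, and 7 and 9 in DKO. In the 4 libraries of WT and P2KO the pseudogene had more counts than its parent, and in both DKO libraries it had far fewer, with no overlap between DKO and the other genotypes for either gene. After scaling for library size, Ndufs5 stood at 82.0 ± 9.91 normalized counts in WT and 557 ± 5.75 in DKO (mean ± SD, n = 2), a 6.79-fold higher mean. BC002163 stood at 302 ± 9.93 in WT and 8.12 ± 2.01 in DKO, a 37.2-fold lower mean. The fitted log2 fold changes in DKO against WT were 2.77 (SE 0.139) for Ndufs5 and -5.21 (SE 0.229) for BC002163. Those in DKO against P2KO, a comparison that shares the DKO libraries, were 2.85 and -5.10.

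Gm5898 followed the direction of BC002163, while the libraries of its parent overlapped between DKO and WT. Gm5898 had 131 and 177 counts in WT, 147 and 148 in P2KO, and 35 and 24 in DKO. Thrap3 had 2807 and 2819 counts in WT, 3355 and 2799 in P2KO, and 3222 and 2946 in DKO. The DKO libraries lay below all others for Gm5898, whereas those of Thrap3 overlapped with WT in normalized counts. The mean of Gm5898 was 156 ± 11.5 normalized counts in WT and 29.5 ± 5.72 in DKO (n = 2), 5.28-fold lower, with a fitted log2 fold change of -2.39 (SE 0.213). For Thrap3 the means were 2886 ± 391 and 3105 ± 26.2, and the fitted log2 fold change was 0.11 (SE 0.0695). Leaving out WT replicate 2 moved it to -0.03 and leaving out WT replicate 1 to 0.25, where Thrap3 was called.

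In the Rpl11 family the direction was the other way, with higher counts of the pseudogenes in DKO. Gm10036 had 1 and 3 counts in WT, 81 and 1 in P2KO, and 142 and 144 in DKO. Gm10288 had 7 and 13 counts in WT, 24 and 9 in P2KO, and 35 and 37 in DKO. P2KO replicate 1 thus stood between the DKO libraries and the rest for both copies, while P2KO replicate 2 stood with WT. WT counts of Gm10036 are at the floor of 3 counts per library, so its fold is a lower bound. Its mean in DKO, 144 ± 11.8 normalized counts, was at least 42.7-fold higher than that floor. Gm10288 rose from a mean of 9.96 ± 2.93 to 36.4 ± 4.03, which is 3.65-fold, with a fitted log2 fold change of 1.83 (SE 0.414).

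Rpl11 itself had 3346 and 4084 counts in WT, 3878 and 3455 in P2KO, and 3314 and 2775 in DKO. In normalized counts, which take the library size into account, WT stood at 3769 and 3781, P2KO at 3440 and 3678, and DKO at 3174 and 2942. The 3 genotypes did not overlap, with DKO lowest, and the fitted log2 fold change in DKO against WT was -0.30 (SE 0.0625). Without DKO replicate 1 it was -0.37, and without DKO replicate 2 it was -0.25 and not called.

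Gm11585 rose in DKO, while the libraries of Ppih overlapped between all genotypes. Gm11585 had 1 and 11 counts in WT, 7 and 2 in P2KO, and 30 and 31 in DKO. Ppih had 299 and 406 counts in WT, 408 and 320 in P2KO, and 372 and 354 in DKO. For Gm11585 the DKO libraries lay above all others, and the WT libraries differed among themselves by more than the P2KO ones did. The fitted log2 fold change in DKO against WT was 2.32 (SE 0.520) for Gm11585 and 0.03 (SE 0.109) for Ppih. That of Gm11585 was 4.62 without WT replicate 2 and 1.58, no longer called, without WT replicate 1. Gm11585 averaged 13.7 counts per library, the fewest of the 9 genes.

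**Figure D2:**
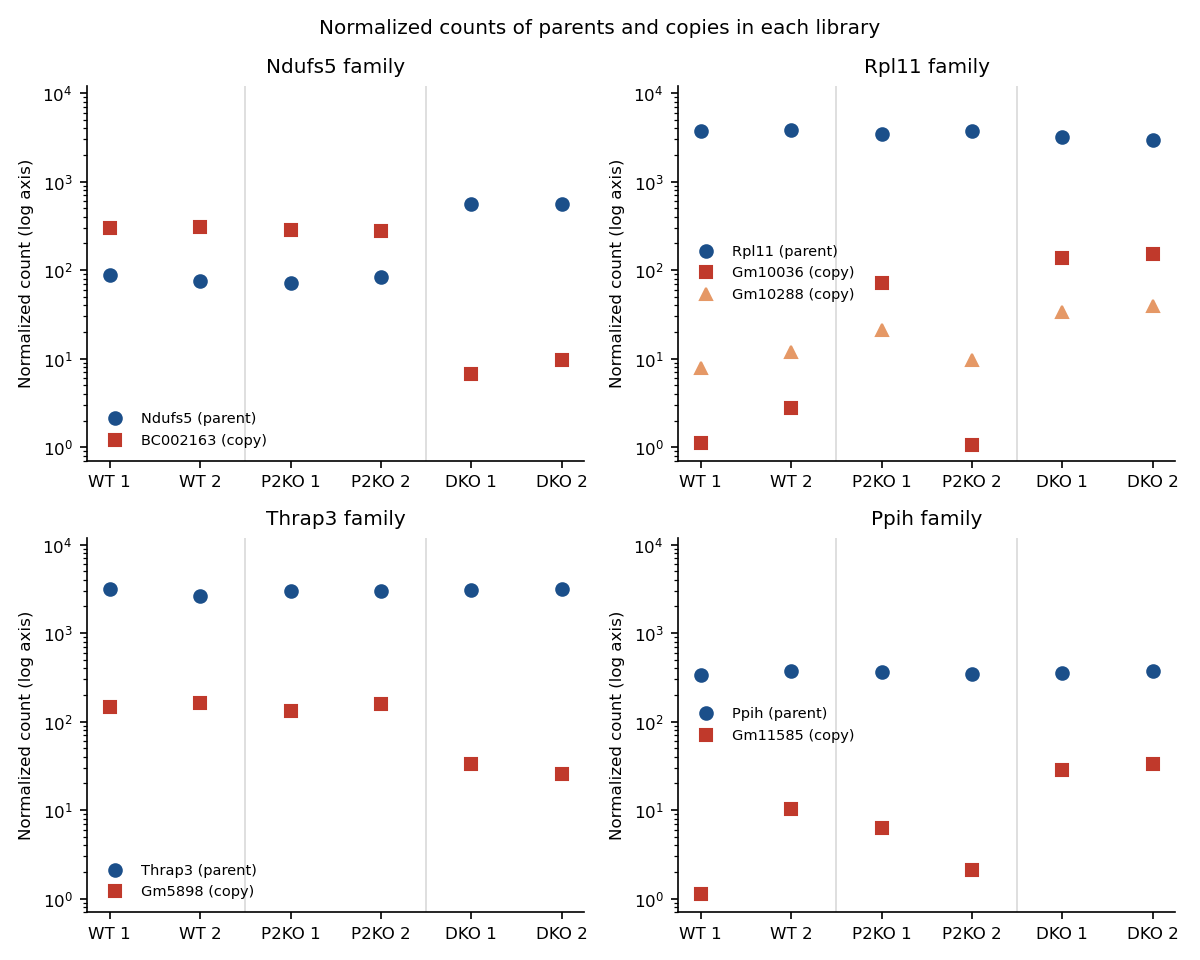
Normalized counts (log axis) of each parent and its copies in the 6 libraries, 1 panel per family, with each point 1 library. Ndufs5 rises from 71.0 to 89.0 in WT and P2KO to 553 and 561 in DKO while BC002163 falls below 10, and Gm10036 is high in DKO and in P2KO replicate 1.

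Of the 9 genes, 7 were called in DKO against WT (4 higher and 3 lower, with Thrap3 and Ppih not called) and 5 in DKO against P2KO (3 higher and 2 lower). Over all tested genes 3.22% and 1.21% were called in these comparisons in edgeR, at a quasi-likelihood p under 0.05 after Benjamini-Hochberg adjustment. The libraries of the genotypes compared did not overlap for 7 of 9 genes in DKO against WT and for 8 of 9 in DKO against P2KO, against 43.2% and 42.8% of all tested genes. Since the genes were picked for their values in DKO, nothing is read from these counts.

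The comparison of P2KO with WT was not used to choose the genes and was tested, although Gm10036 and Gm11585 were in the tested set through DKO. Of the 9 genes, 1 was called, beside 0.337% of all tested genes, and for 2 of 9 the libraries did not overlap, beside 37.5% of all tested genes. Those 2 were BC002163, with a log2 fold change of -0.11 (SE 0.124, Benjamini-Hochberg adjusted p = 0.865 from the quasi-likelihood F test of edgeR), and Rpl11, with -0.09 (SE 0.0621, adjusted p = 0.766). Ndufs5 differed by -0.08 (SE 0.179, adjusted p = 0.949 in edgeR's test), Thrap3 by 0.05 (SE 0.0695, adjusted p = 0.909) and Ppih by -0.02 (SE 0.109, adjusted p = 0.979). The copies Gm5898, Gm10288 and Gm11585 had log2 fold changes of -0.12, 0.64 and -0.47, with adjusted p of 0.901, 0.772 and 0.921. A p above the threshold does not show that the genotypes were alike, and the standard errors of Gm10288 (0.473) and Gm11585 (0.747) are wide.

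The call in P2KO was Gm10036, which entered the test only through its DKO counts, with a log2 fold change of 4.17 (SE 0.862, Benjamini-Hochberg adjusted p = 0.0121 in edgeR). It was higher in 1 of 2 P2KO libraries. The normalized counts were 71.8 in P2KO replicate 1 and 1.07 in P2KO replicate 2, against 1.13 and 2.78 in WT. Without P2KO replicate 1 the log2 fold change was -0.86 and not called, and without DKO replicate 1 it stayed at 4.17 but was not called either. DESeq2 gave 4.21 without a call, and so did the fit with the replicate block, at 4.05. With 2 mice per genotype no exact permutation test of a single gene can reach 0.05.

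The sum of a family was taken as 1 gene and fitted again with all other genes. Reads that fit parent and copy equally well enter neither count, so they are missing from the sum too. Whether the number of such reads differed between genotypes was not tested. The fold of a sum lies between the folds of its parts, and the copies were picked for their counts in DKO. That each sum differed by less than its copies on the log2 scale in DKO against WT is thus not read as a result. Fitted log2 fold changes of sum and parent in DKO against WT were 0.56 and 2.77 for Ndufs5 and -0.23 and -0.30 for Rpl11. For Thrap3 they were 0.05 and 0.11, and for Ppih 0.13 and 0.03. Of the 4 sums, that of the Ndufs5 family differed most. The Ndufs5 family summed to 384 and 384 normalized counts in WT, 353 and 361 in P2KO, and 559 and 570 in DKO. The DKO sum was 1.47-fold the WT sum, and the fitted log2 fold change was 0.56 (SE 0.0980). Against WT, Ndufs5 gained 475 normalized counts on average while BC002163 fell by 294, so that the gain of the parent was larger than the loss of the copy by 181.

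The Thrap3 family summed to 3310 and 2773 normalized counts in WT, 3106 and 3137 in P2KO, and 3120 and 3149 in DKO. Its DKO libraries lay within the range of WT, and the log2 fold change was 0.05 (SE 0.0681), or -0.08 without WT replicate 2 and 0.17 without WT replicate 1. In DKO against WT, Gm5898 fell by 126 normalized counts and the mean of Thrap3 was 219 higher, while the SD of Thrap3 in WT was 391. In DKO against P2KO, Gm5898 fell by 114.5 and the mean of Thrap3 was 127.0 higher, with SDs of 26.2 and 2.78. The libraries of Thrap3 did not overlap there, as for 42.8% of all tested genes, and its fitted log2 fold change of 0.06 (SE 0.0693) was within its standard error and not called. The sum differed by 12.5, with a log2 fold change of 0.01 (SE 0.0679).

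The Rpl11 family summed to 3778 and 3795 normalized counts in WT, 3533 and 3689 in P2KO, and 3344 and 3134 in DKO. The 2 copies together gained 169 in DKO against WT and Rpl11 fell by 717, so the sum differed by -548. The log2 fold change of the sum was -0.23 (SE 0.0612) in DKO against WT, and from -0.27 to -0.17 with each library left out. The Ppih family summed to 338 and 386 in WT, 368 and 343 in P2KO, and 385 and 408 in DKO. Gm11585 gained 25.2 normalized counts, while the SD of Ppih in WT was 27.6. The log2 fold change of the Ppih sum was 0.13 (SE 0.108) in DKO against WT and 0.16 (SE 0.108) in DKO against P2KO.

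In P2KO against WT no sum was called. The log2 fold changes, with p from edgeR adjusted over all genes, were -0.11 for the Ndufs5 family (SE 0.102, adjusted p = 0.842) and -0.07 for the Rpl11 family (SE 0.0609, adjusted p = 0.821). For the Thrap3 family the value was 0.04 (SE 0.0680, adjusted p = 0.930 in the same test), and for the Ppih family -0.03 (SE 0.109, adjusted p = 0.974).

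**Figure D3:**
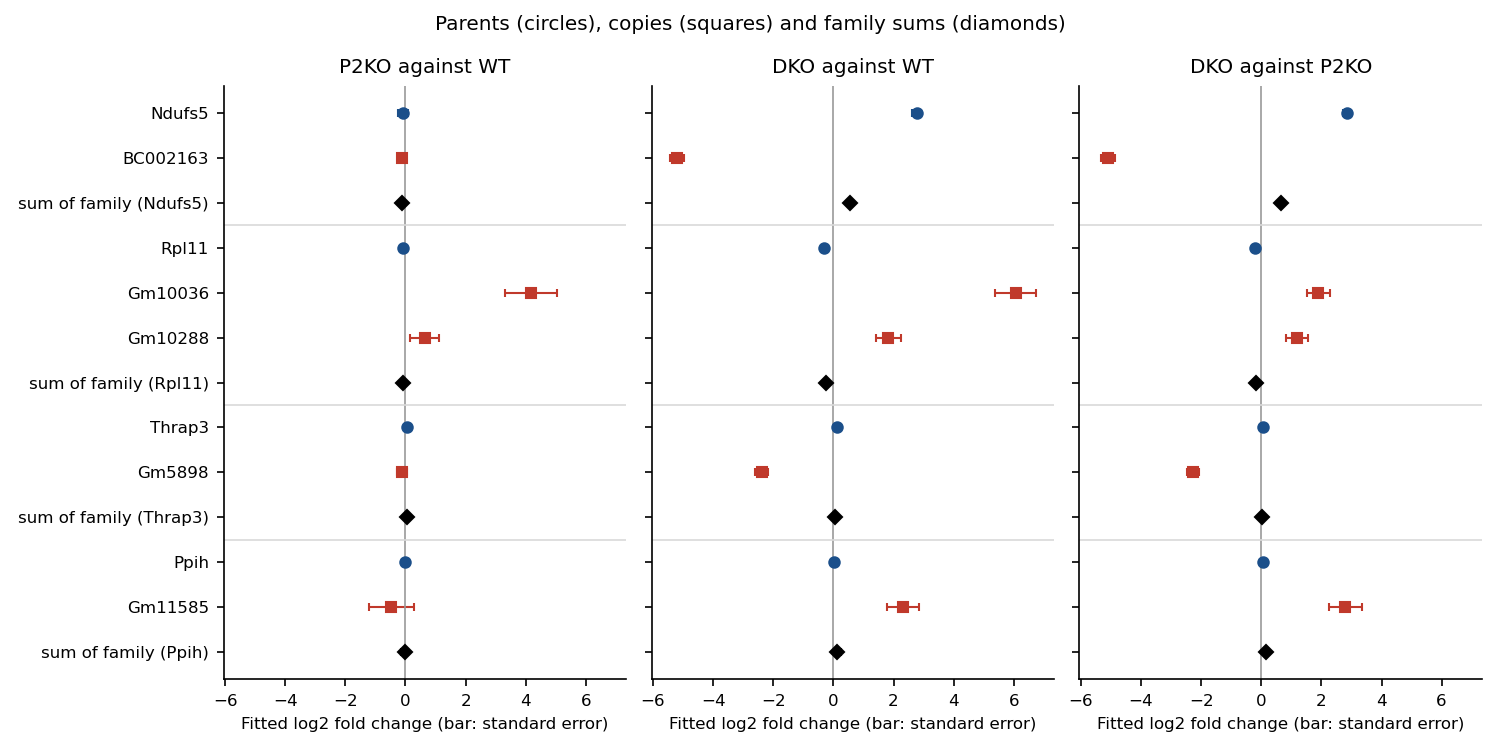
Fitted log2 fold changes of parents (circles), copies (squares) and family sums (diamonds) in the 3 comparisons, with bars of 1 standard error. In DKO against WT the sums lie between -0.23 and 0.56, the parents between -0.30 and 2.77, and the copies between -5.21 and 6.06.

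The share of a family's counts that fell on its copies does not depend on library size. For the Ndufs5 family it was 76.8% (95% exact Clopper-Pearson interval 71.99 to 81.2) and 80.5% (76.3 to 84.2) in WT. It was 79.9% (75.6 to 83.7) and 76.7% (71.8 to 81.1) in P2KO. In DKO it was 1.20% (0.483 to 2.45) and 1.67% (0.768 to 3.15). The intervals of all WT and P2KO libraries overlap with each other. These intervals cover counting error only and not the spread between mice, and the low share in DKO follows from the counts by which the genes were chosen.

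In the Thrap3 family the copy took 4.46% (3.74 to 5.27) and 5.91% (5.09 to 6.81) of the counts in WT. The P2KO values were 4.20% and 5.02%. In DKO the copy took 1.08% (0.750 to 1.49) and 0.808% (0.518 to 1.20), below each of the other 4 libraries.

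In the Rpl11 family the share on the copies was 0.239% (0.103 to 0.469) and 0.390% (0.223 to 0.633) in WT, and 5.07% (4.37 to 5.85) and 6.12% (5.29 to 7.05) in DKO. The P2KO libraries differed from each other, with 2.64% (2.16 to 3.18) in replicate 1 and 0.289% (0.139 to 0.530) in replicate 2. P2KO replicate 1 lay between WT and DKO, and P2KO replicate 2 lay within the range of WT. With all annotated copies of Rpl11 counted, the shares were 0.889% and 0.802% in WT, so that the WT mean moved from 0.314% to 0.845%. They were then 3.36% and 1.06% (0.747 to 1.46) in P2KO, with replicate 2 above both WT libraries and its interval overlapping theirs, and 5.31% and 6.82% in DKO. Gm10036 alone took 0.0299% and 0.0734% of the counts on itself and Rpl11 in WT, 2.05% and 0.0289% in P2KO, and 4.11% and 4.93% in DKO. In the Ppih family the share was 0.333% (0.00844 to 1.84) and 2.64% (1.32 to 4.67) in WT, 1.69% and 0.621% in P2KO, and 7.46% (5.09 to 10.5) and 8.05% (5.54 to 11.2) in DKO. For Ppih the upper bound of WT replicate 2 (4.67) is close to the lower bounds in DKO (5.09 and 5.54), while that of WT replicate 1 (1.84) is further below. The WT libraries have few counts on the copy.

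**Figure D4:**
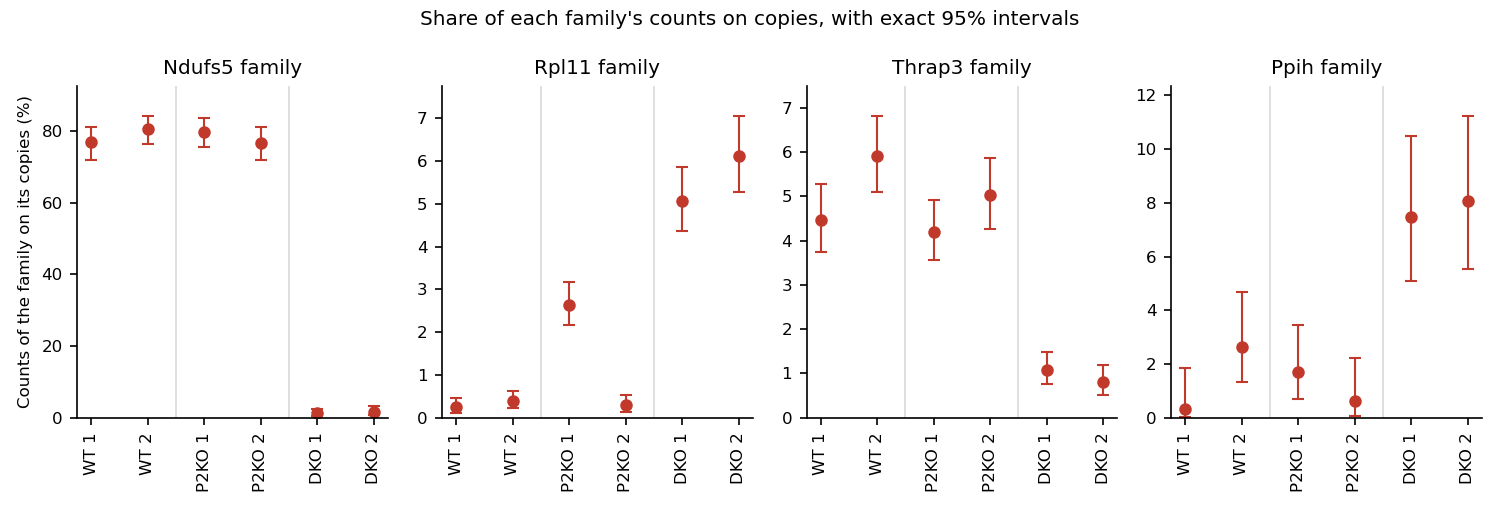
Percent of each family's counts that lie on its copies, per library, with exact 95% Clopper-Pearson intervals and a vertical scale for each family. The share falls in DKO for the families of Ndufs5 and Thrap3, rises for those of Rpl11 and Ppih, and stands at 2.64% in P2KO replicate 1 for Rpl11 only.

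The annotation holds further near-identical copies of the parents, here meaning transcripts that match at 95% identity or more along 150 or more nucleotides and along 50% of the shorter transcript. BC002163 is the only such copy of Ndufs5. Rpl11 has 9 copies, Ppih 5 and Thrap3 2. Outside the 9 genes, 2 copies had a mean of at least 10 counts. Gm7879, a copy of Ppih (chromosome 5), had counts of 33 and 18 in WT, 35 and 24 in P2KO, and 19 and 20 in DKO. Gm5093, a copy of Rpl11 (chromosome 17), had 19 and 15, 26 and 26, and 8 and 18 counts in the same order. Neither was called by edgeR. In DKO against WT the log2 fold change was -0.42 (SE 0.386, adjusted p = 0.712) for Gm7879 and -0.40 (SE 0.456, adjusted p = 0.780) for Gm5093. Each thus had a fitted value below 0 while the copies Gm11585 and Gm10288 of the same parents had higher counts in DKO. With every annotated copy counted, the mean share on copies of the Ppih family was 10.4% ± 2.00 in WT, 10.2% ± 1.56 in P2KO and 13.2% ± 0.693 in DKO (SD, n = 2), so that the contrast in that family was smaller than with Gm11585 alone.

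The host genes of the intronic pseudogenes were not called in any comparison. Zbtb20, a transcription factor gene that holds BC002163, ran from 363 to 469 normalized counts. Its log2 fold change in DKO against WT was 0.23 (SE 0.103, adjusted p = 0.297 in edgeR), against -5.21 for BC002163. Otud7a, a deubiquitinase gene that holds Gm5898, ran from 296 to 335 normalized counts, with a log2 fold change of 0.04 (SE 0.114, adjusted p = 0.925 in edgeR's test).

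The nearest tested protein-coding genes on each side of the parents were examined in the same way. Of these 8 neighbours, 1 was called in DKO against WT by edgeR, beside 3.22% of all tested genes. The adjusted p of the neighbours in P2KO against WT ran from 0.490 to 0.966. The call was Eloa, which encodes the elongin A subunit of an elongation factor and lies 6.50 kb from Rpl11, with 1439 and 1362 normalized counts in WT, 1395 and 1455 in P2KO, and 1782 and 1681 in DKO. Its log2 fold change was 0.31 (SE 0.0697, adjusted p = 0.00617 with Benjamini-Hochberg adjustment), opposite in sign to that of Rpl11. Eloa was also called in DKO against P2KO, with 0.28 (adjusted p = 0.0282 in edgeR). On either side of Ndufs5, Macf1 had a log2 fold change of 0.23 (SE 0.0769, adjusted p = 0.105 in edgeR's test) and Akirin1, at 16.4 kb, had 2368 to 2434 normalized counts in WT and DKO with a log2 fold change that rounds to zero (adjusted p = 0.994). The neighbours of Thrap3 (Sh3d21 and Map7d1), of Ppih (Ybx1 and Ccdc30) and the other one of Rpl11 (Id3) had adjusted p from 0.312 to 0.871.

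Among all pairs of tested genes at 95% identity or more, 91 had 1 partner on chromosome 4 and the other elsewhere. In DKO against WT, 16 of these pairs had a called partner and 4 had both partners called by edgeR, 3 of them in opposite directions, whereas DESeq2 called 2 pairs in opposite directions. The 3 are Ndufs5 with BC002163 and Rpl11 with Gm10036 and with Gm10288, so they are pairs by which the families were picked. The pair called in the same direction was Gm13238 with Cdv3. Of 2720 pairs with both partners off chromosome 4, 70 had a called partner, 7 had both partners called and 0 were called in opposite directions by edgeR. At an unadjusted p under 0.05, 5 of the 2720 pairs were opposite, and by DESeq2 0. Without the 5 family pairs, 86 pairs had 1 partner on chromosome 4, of which 11 had a called partner and 0 were called in opposite directions by edgeR or DESeq2, with 5 opposite at an unadjusted p under 0.05. In P2KO against WT, 4 of the 91 pairs had a called partner and 0 had both partners called by edgeR or DESeq2, with 3 at an unadjusted p under 0.05. The pairs share genes (147 genes in the 91 pairs) and are not independent, so no test was made.

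A difference in sign alone was common, since in DKO against WT 45 of the 91 pairs had fitted changes of opposite sign. With a change of at least 1 on the log2 scale in both partners, 4 such pairs were left, of which Ndufs5 with BC002163 is 1. The others outside the families were Rpl31-ps10, a ribosomal protein pseudogene of chromosome 4, with Rpl31-ps12 and with Rpl31-ps8, and Zfp993 with Gm8935. Of these genes, 1 was called, Zfp993. The log2 fold changes were 2.13 for Rpl31-ps10, -1.44 for Rpl31-ps12 and -1.20 for Rpl31-ps8.

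Pairs with both partners on chromosome 4 were set beside these. Of 57 such pairs, 2 were called in opposite directions in DKO against WT, and both were also so in P2KO against WT, whereas DESeq2 called 0 in opposite directions. In the pair of zinc-finger genes Zfp979 and Zfp978, at 147.6 and 147.4 Mb, Zfp979 had 304 and 298 normalized counts in WT, 18.6 and 21.3 in P2KO, and 12.5 and 15.9 in DKO. Zfp978 had 2.25 and 1.85 in WT, 23.9 and 22.4 in P2KO, and 21.1 and 21.2 in DKO. Zfp993 and Gm21411, at 146.6 and 146.9 Mb, were the other pair, with log2 fold changes in P2KO against WT of -2.75 and 1.80 (adjusted p = 4.21e-09 and 0.00292 in edgeR). Beside these, Ndufs5 and BC002163 had log2 fold changes of -0.08 and -0.11 in P2KO against WT.

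**Figure D5:**
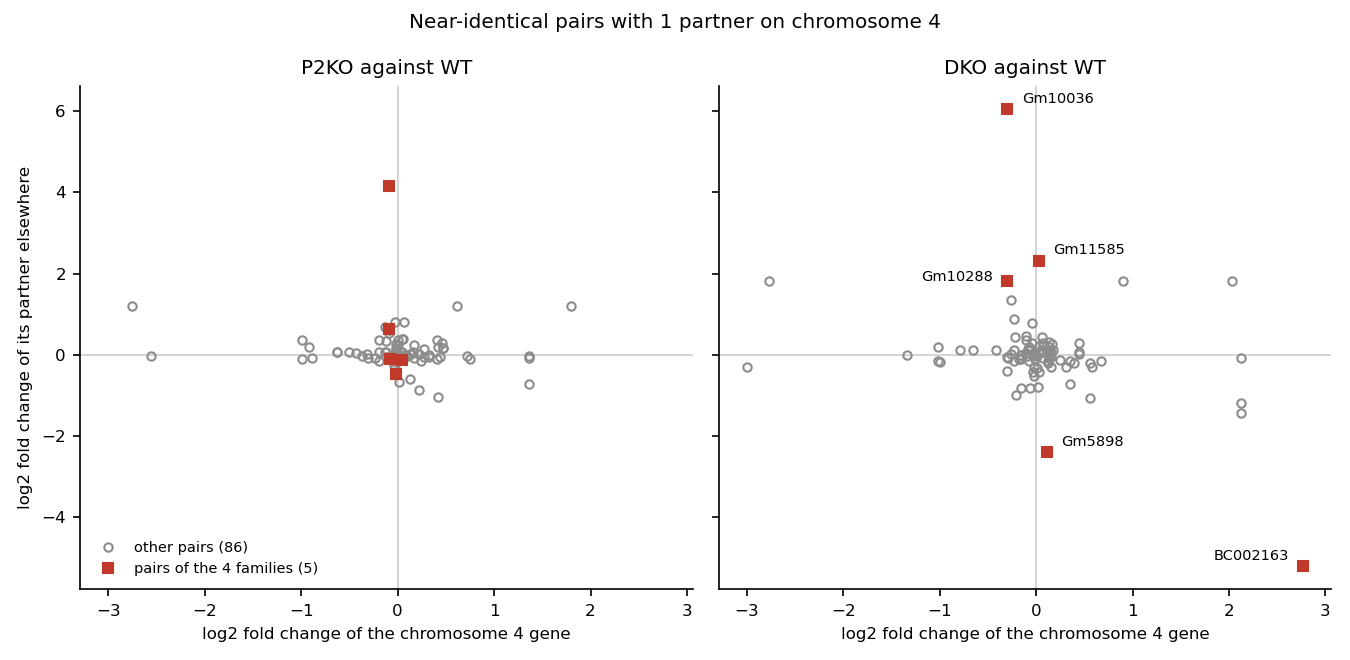
Log2 fold change of the chromosome 4 gene (horizontal) and of its near-identical partner on another chromosome (vertical) for 91 pairs, in P2KO against WT and in DKO against WT. Squares are the 5 pairs of the 4 families and open circles the 86 other pairs. Ndufs5 with BC002163 is the square at 2.77 and -5.21 in the second panel.

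For each of the copies and for Ndufs5, the genes whose levels followed the same course over the 6 libraries were found by the Euclidean distance between deviations of log2 CPM from each gene's own mean. For Ndufs5 they were Sdc3 (distance 0.97) and Csmd2 (1.49) of chromosome 4 and Klk1b27 (1.57) of chromosome 7. Sdc3, a syndecan gene at 130.8 Mb of chromosome 4, had 89.0 to 98.1 normalized counts in WT and P2KO and 1102 and 1144 in DKO. For BC002163 they were Gm17300 (1.83), Rab42 (2.61) and Crybg2 (2.72), all between 132.3 and 134.1 Mb of chromosome 4, although BC002163 lies on chromosome 16. For Gm5898 they were Aunip (0.43), Runx3 (0.60) and Gm13003 (0.63), at 134.5, 135.1 and 137.2 Mb of chromosome 4. Runx3, a transcription factor gene, had 401 and 357 normalized counts in WT, 371 and 340 in P2KO, and 64.2 and 79.5 in DKO.

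For Gm10036 the nearest genes were E2f2 (3.04), 9530002B09Rik (3.61) and Myom3 (3.81), again all on chromosome 4. E2f2 and Myom3 lie at 136.2 and 135.8 Mb, on either side of Rpl11, and were high in P2KO replicate 1 too. E2f2, a cell cycle transcription factor gene, had 42.8 and 54.6 normalized counts in WT, 228 and 50.04 in P2KO, and 305 and 395 in DKO. Myom3 had 24.8 and 26.9 in WT, 83.4 and 24.5 in P2KO, and 125 and 109 in DKO. As with Gm10036, P2KO replicate 1 stood between WT and DKO for both genes, and P2KO replicate 2 stood with WT. For Gm10288 the nearest were 4933407I08Rik (0.54), Rpl31-ps10 (0.60) and Ackr2 (0.64), on chromosomes 18, 4 and 9. For Gm11585 they were Gm10288 (1.64), Gm45274 (1.76) and Ndufs5 (1.83), on chromosomes 3, 8 and 4. The genes nearest these 2 copies were thus mostly off chromosome 4. These are descriptions over 6 libraries, in which genes that differ between DKO and the rest resemble each other.

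Per length of merged exons, Ndufs5 changed its place among the genes of complex I. Its level was 3.89 CPM per kb in WT, 3.67 in P2KO and 26.4 in DKO. Among 36 tested nuclear genes of the complex it ranked 34 from the highest in WT, 35 in P2KO and 13 in DKO, and the median of the others was 23.8 CPM per kb in WT and 20.1 in DKO. In WT the 319-nucleotide BC002163 had 38.6 CPM per kb, above that median, and in DKO it had 1.04. The move of Ndufs5 follows from the DKO counts by which the genes were chosen. Reads that fit parent and copy equally well are not counted, while the length includes the bases they come from. Levels of genes with such a copy are therefore not directly comparable with those of genes without one. Rpl11 ranked 20 of 46 large-subunit genes in WT and P2KO and 22 in DKO, at 57.0, 53.8 and 46.2 CPM per kb. Ppih held rank 10 or 11 of 16 among tri-snRNP genes.

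Of 40 tested complex I genes, 1 was called higher and 1 lower in DKO against WT by edgeR, which is 5% of the list beside the 3.22% of all tested genes. At an unadjusted p under 0.05 there were 15 (37.5%), beside 14.1% of all tested genes. The median log2 fold change in DKO was -0.079, beside -0.005 over all tested genes. The called genes were mt-Nd5, a mitochondrially encoded core subunit, with 0.32 (SE 0.0557, adjusted p = 2.96e-04 with Benjamini-Hochberg adjustment in edgeR), and Ndufa2, an accessory subunit, with -0.34 (SE 0.0886, adjusted p = 0.0201). Both were also called in DKO against P2KO. In size the 2.77 of Ndufs5 exceeded both.

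Of 45 tested genes of the large ribosomal subunit, 0 were called higher and 1 lower in DKO against WT, which is 2.22% of the list. Rpl27a was the call, with -0.24 (SE 0.0615, adjusted p = 0.0201 in edgeR). At an unadjusted p under 0.05 there were 18 (40.0%, beside 14.1% of all tested genes), and the median of the list was -0.121, beside -0.005 over all tested genes. Of 4 genes around Mdm2 and p53, 0 were called by edgeR or DESeq2 in each comparison, and 0 had an unadjusted p under 0.05, with medians from -0.032 to 0.045.

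Of 15 tested tri-snRNP genes, the setting in which Ppih works, 2 were called higher and 1 lower in DKO against WT, 20% of the list beside 3.22% of all tested genes. They were Prpf8 and Snrnp200, central components of the spliceosome, with 0.30 and 0.26, and Sart1 with -0.33 (adjusted p = 0.00564, 0.0102 and 0.00977 in edgeR). The median of the list was -0.003. Of 15 cyclophilin genes, 1 was called higher, Ranbp2 of the nuclear pore, with 0.34 (SE 0.0645, adjusted p = 7.88e-04 in the same edgeR test), which is 6.67% of that list. In P2KO against WT, 0 genes of these lists were called by edgeR or DESeq2. At an unadjusted p under 0.05 there were 1 in complex I, 2 in the tri-snRNP and 1 among cyclophilins, and 0 in the other lists, beside 8.57% of all tested genes.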

How the data were processed

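The authors extracted RNA from testes, selected poly(A) RNA, made strand-specific libraries and sequenced pairs of reads on a NovaSeq. They trimmed reads with Trim Galore, which runs cutadapt, and aligned them to GRCm38 with Ensembl annotation by STAR. They deposited 1 table of counts, the number of reads per gene as counted by STAR, with no normalization. Software versions, and the strand setting of the STAR counts, are not given in the sources used here. The authors' own comparisons used DESeq2. The table's 6 columns were assigned to genotypes by their labels, with WT being the FVB/NJ columns.

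The count model was edgeR 4.0.16 (with limma 3.58.1) under R 4.3.3. Genes were filtered by filterByExpr (minimum count 10), and libraries were scaled by TMM. All 6 libraries entered 1 quasi-likelihood fit with genotype as the only term (3 residual degrees of freedom), and p-values were adjusted by Benjamini-Hochberg over 20744 genes, with a call at an adjusted p under 0.05. The SE is the absolute log2 fold change divided by the square root of F. Normalized counts are counts divided by the TMM-scaled library size over the geometric mean of those sizes. Families were also summed and refitted. Replicates are separate mice, and they differed by more than sampling noise (chi-square per degree of freedom from 3.31 to 4.71). On simulated data for DKO against WT with 20425 genes, the fit called 91% of genes with a log2 change of 1 and 99% of those with 2. The changed genes were drawn above a minimum mean count, which Gm11585 does not reach. Every simulated gene had the same biological coefficient of variation, 0.0508. These shares therefore do not apply to genes with fewer counts or a larger spread.

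Near-identical copies were found with BLAST 2.17.0 among GENCODE M21 transcripts (at least 95% identity over 150 nucleotides and 50% of the shorter transcript). The 9 genes, the lists and the tests were chosen with earlier results of these data known. Other genes were named by a rule: copies with a mean of at least 10 counts, the nearest tested coding gene on each side of each parent, called pairs, up to 4 called genes per list, and the 3 most similar genes for a gene whose log2 CPM (prior count 2) spans at least 1. The pairs of Rpl31-ps10, the pairs within chromosome 4 and the pair called in the same direction were named after their values were seen. Alternatives were RLE size factors, scaling on genes off chromosome 4, no filter or a mean of at least 50 counts, the replicate block, DESeq2 1.42.0, each library left out, 98% identity, and every annotated copy in the shares. The list of partner genes of Thrap3 is not reported here.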

Additional observations from a re-analysis of the deposited data

How the results depend on the processing

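Depth limits Gm10036 in WT and Gm11585, with 1 to 11 counts in WT libraries, and the groups of 2 limit every SD. A library left alone in its genotype is assumed to vary like the others. Genes called in P2KO against WT numbered 70, and 140 without a filter, 41 by DESeq2, and 53 to 311 with each library left out. For DKO against WT there were 668, 403 by DESeq2 and 250 to 1065 with libraries left out, and for DKO against P2KO 250, 162 by DESeq2 and 108 to 622. With a library left out, the lowest counts came without P2KO replicate 2 in P2KO against WT and without DKO replicate 2 in both other comparisons, and the highest without WT replicate 1 (311 and 1065) and, in DKO against P2KO, without WT replicate 2. The cause was not tested. Of the 9 genes, the 1 called in P2KO against WT became 0 with a mean of at least 50 counts and by DESeq2, and 0 to 1 with libraries left out. The 7 in DKO against WT became 5 by DESeq2, without Gm10288 and Gm11585, and 5 with a mean of at least 50 counts, which left these 2 untested. They became 4 to 7 with libraries left out (without DKO replicate 2 Rpl11, Gm10288 and Gm11585 were not called, and without DKO replicate 1 or WT replicate 1 Gm11585 was not, while Thrap3 was called without WT replicate 1), and the 5 in DKO against P2KO became 3 by DESeq2 and 3 to 6 (without either DKO library Gm10036 and Gm11585 were not called, and without P2KO replicate 2 Gm11585 was not, while Rpl11 was called without either WT library). Gm10036 in P2KO against WT ran from -0.86 (without P2KO replicate 1) to 5.06 with libraries left out, and leaving out P2KO replicate 1 also moved it to 6.92 in DKO against P2KO.

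Replicate numbers did not pair the mice (correlations of -0.057, 0.057 and -0.050 between genotypes). With the replicate block, 45 genes and 0 of the 9 were called in P2KO against WT, Gm10036 standing at 4.05, and for DKO the same 7 and the same 5 of the 9 were called. With libraries left out, the log2 fold changes of the sums in DKO against WT ran from 0.55 to 0.57 (Ndufs5), -0.27 to -0.17 (Rpl11), -0.08 to 0.17 (Thrap3) and 0.03 to 0.23 (Ppih). In DKO against P2KO they ran from 0.65 to 0.69 (Ndufs5) and -0.20 to -0.10 (Rpl11). In P2KO against WT the uncalled sums of Thrap3 (-0.09 to 0.17) and Ppih (-0.12 to 0.07) changed sign. With every annotated copy, mean shares were 0.845% for Rpl11 in WT, and 10.4%, 10.2% and 13.2% for Ppih in WT, P2KO and DKO. Opposite calls stayed at 3 pairs at 98% identity and were 2 by DESeq2.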
